A study of Mus musculus with 80 samples.

Results

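The genes described here are the nuclear genes of oxidative phosphorylation, the subunits that the mitochondrial respiratory chain and ATP synthase take from the nucleus. They were chosen by symbol and annotation: protein-coding genes of GENCODE M21 named Nduf (a, b, s, v or c), Sdha to Sdhd, Uqcr, Cox4 to Cox8, Cyc1 or Atp5. The rule itself used no measured value, but earlier results of these data were known when it was set. Of 40481 genes listed in both deposited tables, 94 met this rule. They comprised 36 genes of complex I, 8 assembly factors of complex I that the pattern also takes (Ndufaf genes), 4 of complex II, 9 of complex III, 20 of complex IV (Ndufa4 and Ndufa4l2 counted there) and 17 of ATP synthase.

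Mouse blood-forming cells of B6 background gave the RNA: hematopoietic stem cells, abbreviated HSC, and hematopoietic progenitors, abbreviated HPC, in 80 libraries of 20 groups. The first table followed HSC in the embryo at E14 (3 libraries), E16 (4) and E18 (3), each at the middle of that day of gestation, on postnatal days 0, 7 and 14 (P0, P7 and P14, 4 each) and at 8 weeks of age (Adult, 4). It followed HPC at E16 (3), P0 (4), P7 (4), P14 (5) and Adult (4), and gave no genotype for these animals. The second table held P0 HSC labelled wild type (5) or Ifnar -/- (4), P0 HPC labelled wild type (4) or Ifnar -/- (4), and P14 HPC labelled Ifnar +/- with Flt3 +/+ (4), Ifnar +/- with Flt3 ITD/+ (4), Ifnar -/- with Flt3 +/+ (4) or Ifnar -/- with Flt3 ITD/+ (5). Ifnar is the receptor of type I interferon, and the internal tandem duplication (ITD) of the cytokine receptor Flt3 is an activating mutation of leukemia. The controls of the P14 set therefore carried 1 mutant Ifnar allele. How the cells were isolated and from which organ is not named in the labels, and nothing says whether replicate libraries came from separate animals.

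In oxidative phosphorylation, complex I takes electrons from NADH and complex II takes them from succinate, complex III passes them through cytochrome c to complex IV, which reduces oxygen, and ATP synthase uses the proton gradient that results. Each complex except complex II also holds subunits encoded by the mitochondrial genome, so 2 genomes supply the same machine. Adult HSC are known for low respiration and reliance on glycolysis, and respiration rises as they become cycling progenitors.

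Transcription factors known for nuclear respiratory genes include Nrf1, the ETS factor Gabpa and Yy1, and their short motifs are shown because so many members share them. Promoter sequence was matched for 74 of the 94 members, from RefSeq on GRCm38.p6, over 250 bases before to 50 after the start, on both strands. The Nrf1 core GCATGCGC was present in 12 of 74 members (16.2%) and in 3.05% of all 27025 promoters of that table. The ETS motif CCGGAAG was in 18 (24.3%) against 9.93%. The Yy1 motif AAGATGGC was in 10 (13.5%) against 3.19%, 7 of them among 32 complex I promoters and 0 among 14 of complex IV. The Esrra motif TCAAGGTCA was in 2 (2.70%) against 0.466%. A match is a string of letters, not a bound site. The 3 promoters below belong to members described later (2 subunits of complex II and the common form of subunit 6a of complex IV), from 250 bases before to 30 after the start, with motif matches in capitals, on the strand of the gene:

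Sdhb (chr4:140961021-140961300, plus strand): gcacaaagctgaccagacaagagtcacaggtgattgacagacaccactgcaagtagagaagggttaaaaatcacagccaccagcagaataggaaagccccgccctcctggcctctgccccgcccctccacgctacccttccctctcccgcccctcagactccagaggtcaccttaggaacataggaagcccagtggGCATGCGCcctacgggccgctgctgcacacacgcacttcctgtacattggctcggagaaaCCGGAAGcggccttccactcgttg

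Sdhd (chr9:50603820-50604099, minus strand): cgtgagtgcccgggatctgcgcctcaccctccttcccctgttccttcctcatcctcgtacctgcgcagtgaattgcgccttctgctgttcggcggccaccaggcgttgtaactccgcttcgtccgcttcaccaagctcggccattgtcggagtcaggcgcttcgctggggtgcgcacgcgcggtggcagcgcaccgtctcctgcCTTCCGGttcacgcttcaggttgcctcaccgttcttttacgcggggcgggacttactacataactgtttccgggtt

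Cox6a1 (chr5:115348929-115349208, minus strand): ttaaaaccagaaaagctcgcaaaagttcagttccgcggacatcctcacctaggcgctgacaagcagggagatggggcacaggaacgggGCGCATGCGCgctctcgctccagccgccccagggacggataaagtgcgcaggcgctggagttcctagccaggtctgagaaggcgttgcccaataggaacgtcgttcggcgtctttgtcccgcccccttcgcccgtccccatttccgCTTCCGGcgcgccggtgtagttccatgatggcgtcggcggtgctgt

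In the Sdhb promoter the Nrf1 core began 54 bases before the start and the ETS motif 6 bases after it. In the Sdhd promoter the ETS motif (read on the other strand) began 46 bases before the start. In the Cox6a1 promoter overlapping copies of the Nrf1 core on both strands began 162 and 160 bases before the start, and the ETS motif (other strand) began 16 bases before it.

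In the age series each HSC library held 6.95 to 24.034 M reads on genes (M for mega) and each HPC library 7.911 to 25.382 M. In the genotype series depth was 37.039 to 46.303 M for P0 HSC, 11.683 to 14.72 M for P0 HPC and 58.4 to 92.1 M for P14 HPC. The 10 HSC markers looked at summed to 2859 to 4519 CPM (counts per M reads) in HSC and 774.1 to 2825 in HPC, and the 6 HPC markers to 1043 to 2250 in HSC and 1688 to 18360 in HPC. Kit is in both lists, with group means of 799.9 to 1077 CPM in HSC and 442.6 to 1104 in HPC. Ifnar1, the gene of a receptor chain, was not lower in libraries labelled Ifnar -/-: it was at 78.3 to 87.95 CPM in P0 HPC labelled Ifnar -/- and 53.84 to 79.35 in wild type, at 58.07 to 70.17 against 51.09 to 74.45 in P0 HSC, and at 42.35 to 61.54 in the Ifnar -/- against 16.79 to 57.77 in the Ifnar +/- libraries at P14. Counts per gene do not show which part of a gene is altered, so genotypes are given below as labelled. Not all groups gave like values for genes that have copies. In P0 HSC, 6 of 89 members were over 4-fold higher in the second table than in the first (Atp5g2, Atp5l, Cox7c, Atp5g1, Ndufb4 and Ndufab1, by 90.1-fold for Atp5g2), and each of the 6 shares 50-base words with an annotated copy elsewhere in the genome. In P14 HPC labelled Ifnar +/- with Flt3 +/+, 5 of the 6 were over 4-fold higher too. In P0 HPC the ratios of the 6 were 0.508 to 1.855, so within the second table P0 HPC stood with the first table and apart from P0 HSC and P14 HPC. Smaller gaps of the same kind were seen for Atp5h, Ndufs5 and Ndufa12, at ratios of 2.132 to 2.563 in P0 HSC and 2.462 to 3.047 in P14 HPC. In P0 HPC their ratios were 0.946 to 1.348. Values of the 6 are uncertain, and those of these 3 may be too. No test compared levels between the tables. In some libraries values fell with exon length: the Spearman correlation across genes of a library's deviation from the mean with exon length was -0.495 and -0.547 in P14 HPC libraries 1 and 2 of the age series, -0.483, -0.53 and -0.425 in libraries 1, 3 and 4 of P14 HPC labelled Ifnar +/- with Flt3 +/+, and -0.486 in library 5 of those labelled Ifnar -/- with Flt3 ITD/+. The trend ran the other way in adult HPC of the age series, at 0.445, 0.165, 0.262 and 0.376. Most members are short (571 to 3599 bases from the 10th to the 90th percentile of the lengths of those tested in HPC), so these libraries are named again wherever a result rests on them.

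Together the 94 members took 1.79% to 3.14% of the reads of an HPC library of the age series and 1.82% to 2.29% of an HSC library. In HSC the mean share was 2.23% ± 0.0507 (SD, n = 3) at E14, 2.15% ± 0.0660 (n = 4) at E16, 1.94% ± 0.0982 (n = 3) at E18, 1.93% ± 0.105 (n = 4) at P0, 2.13% ± 0.0309 (n = 4) at P7, 2.03% ± 0.0980 (n = 4) at P14 and 1.96% ± 0.153 (n = 4) in adults. In HPC it was 2.54% ± 0.0999 (n = 3) at E16, 2.26% ± 0.124 (n = 4) at P0, 2.55% ± 0.309 (n = 4) at P7, 2.57% ± 0.521 (n = 5) at P14 and 1.97% ± 0.141 (n = 4) in adults. The 2 P14 HPC libraries with the steep length trend stood at 3.10% and 3.14%, against 1.99% to 2.34% in the other 3. These are cell populations, so fewer cells of a type and less RNA per cell cannot be told apart.

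**Figure D1:**
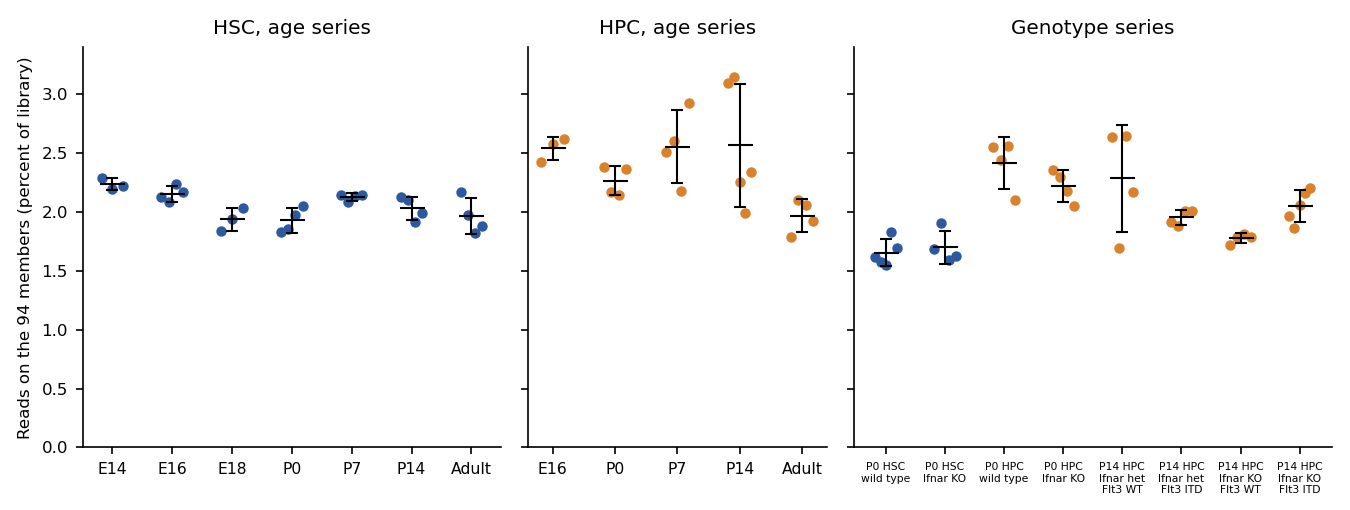
Percent of the reads of each library that fell on the 94 nuclear oxidative phosphorylation genes (points, 1 per library) with the mean and SD of each group, in HSC ages, HPC ages and genotype groups. HSC libraries of the age series lie between 1.82% and 2.29%, and P14 HPC are the most spread of the HPC ages.

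Members differed widely in level. Ndufa4, a subunit of complex IV once counted in complex I, was highest, with group means of 773.5 to 1073 RPKM (reads per kilobase of exon and M reads) in HSC and 1505 to 2575 in HPC. Most paralog pairs had 1 form well above the other throughout the age series. Cox4i1, the common subunit 4 of complex IV, had group means of 532.6 to 692.1 RPKM in HSC and 622.0 to 843.1 in HPC, against 12.43 to 64.1 and 2.80 to 53.56 for Cox4i2, the form known from lung and from low oxygen. Cox6a1 lay at 280.1 to 352.2 RPKM in HSC and 285.1 to 369.4 in HPC. Cox6a2, the heart and muscle form, had group means of 8.38 to 14.76 RPKM in HPC and of at most 0.161 in HSC. Cox6b1 lay at 483.0 to 569.6 RPKM in HSC and 563.3 to 820.8 in HPC, and Cox6b2, known from testis, at 48.17 to 82.26 and 37.06 to 55.84. Cox7a2 lay at 208.4 to 261.4 RPKM in HSC and 240.4 to 402.4 in HPC, Cox7a2l, which helps to join complexes III and IV, at 169.9 to 259.2 and 197.7 to 258.6, and the muscle form Cox7a1 at 1.83 to 4.53 and 2.39 to 5.64. Cox8a lay at 370.0 to 426.9 RPKM in HSC and 337.8 to 460.5 in HPC, Cox8b reached at most 0.147, and Cox8c had no read in any library. Of the 3 genes of the same c subunit of ATP synthase, Atp5g3 lay at 115.5 to 148.1 RPKM in HSC and 105.5 to 160.5 in HPC, while Atp5g1 and Atp5g2 lay at 0.898 to 4.11, values that their copies make uncertain.

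In HSC, 89 members passed the filter on low values, and Cox6a2, Cox7b2, Cox8b, Cox8c and Ndufa4l2 did not. Between E14 and E16, 0 were called at an adjusted p under 0.05 by limma (6 at an unadjusted p under 0.05, and 0 called by edgeR on recovered reads), where 0.0523% of all genes were called higher and 0% lower. From E16 to E18, 6 of 89 members fell and 0 rose, where 3.02% of all genes fell and 2.41% rose. They were Cyc1 (cytochrome c1 of complex III), Atp5a1 and Atp5b (the alpha and beta subunits of the catalytic head of ATP synthase), Sdhc and Sdhd (membrane anchors of complex II) and Ndufa9 of complex I. Cyc1 stood at 93.08, 114.0, 144.8 and 120.4 RPKM at E16 and at 63.23, 70.22 and 71.61 at E18. Its groups did not overlap, with a log2 fold change of -0.81 ± 0.16 (SE, limma adjusted p = 0.00173). Atp5b stood at 254.8, 250.8, 275.4 and 260.5 RPKM at E16 and at 194.6, 209.4 and 202.9 at E18. All E18 libraries were lower, with a log2 fold change of -0.40 ± 0.08 (limma adjusted p = 0.00155). The other 4 fell by 0.31 to 0.51 without overlap between the groups, and 25 of the 89 tested did not overlap. The share of all genes without overlap was not computed, here or below, so such counts are not read as particular to the members. Within the members' length range 4.82% of genes fell. In the same step 14 of 20 G2/M phase genes fell (median -0.86), and so did the progenitor genes Cd48 (-3.52 ± 0.28, limma adjusted p = 5.84e-09), Mpo (-3.76 ± 0.73, limma adjusted p = 0.00275) and Gata1 (-2.41 ± 0.47, limma adjusted p = 0.00232), named here after their values were seen. HPC markers summed to 1747 to 2250 CPM at E16 and 1474 to 1552 at E18, and erythroid markers (7 genes) to 49.0 to 56.73 and 15.45 to 28.24. Of 12 marker lists, 8 separated E18 from E16 without overlap. B cell and T and NK cell markers were also lower at E18. Higher at E18 were HSC markers (3057 to 3326 CPM at E16, 3656 to 3816 at E18) and macrophage markers (61.56 to 92.5 and 93.62 to 113.3). So were megakaryocyte markers (108.9 to 130.4 and 135.4 to 137.5) and plasmacytoid dendritic genes (102.1 to 121.8 and 178.5 to 196.1), the last listed after values were seen. The part of these in the fall of members was not tested.

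From E18 to P0, 2 members rose and 2 fell, where 2.94% of all genes rose and 1.81% fell. Cox7a2l rose from 158.1 to 183.8 RPKM at E18 to 190.1 to 299.7 at P0 (0.60 ± 0.14, limma adjusted p = 0.0129), and the complex I subunit Ndufa6 rose by 0.33. Ndufa12 of complex I and Uqcrb of complex III fell by 0.35 each.

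The first week after birth was the step of the HSC series with the most members higher. From P0 to P7, 14 of 89 members rose (15.7%) and 1 fell, where 3.27% of all genes rose and 2.67% fell. Groups did not overlap for 29 of the 89 tested, the 15 called among them, with no such share computed over all genes. The median over the members was 0.17 on the log2 scale and that over all genes tested -0.01, and 74 members had a positive change. Among genes of the members' length range, 4.64% rose. Complex I gave 8 of the 14 (of 36 tested), its assembly factors 2 of 8, complex III 2 of 9, complex II 1 of 4, ATP synthase 1 of 17 and complex IV 0 of 15. Uqcrq, a small subunit of complex III, stood at 58.59, 64.99, 60.9 and 68.19 RPKM at P0 and at 127.4, 96.81, 123.7 and 130.7 at P7. Every P7 library was above every P0 library, by 0.94 ± 0.12 (limma adjusted p = 1.02e-05). Sdhb, the iron-sulfur subunit of complex II whose promoter is printed above, stood at 134.7, 136.3, 145.6 and 128.1 RPKM at P0 and at 184.6, 177.3, 176.9 and 159.7 at P7 (log2 0.39 ± 0.08, limma adjusted p = 0.00461). The assembly factors Ndufaf7 and Ndufaf4 rose by 0.64 ± 0.17 and 0.49 ± 0.15, Ndufa10 by 0.52 ± 0.12, Ndufb7 by 0.45 ± 0.12 and Uqcr10 by 0.47 ± 0.12 (limma adjusted p = 0.012 to 0.0482), and Ndufc2 fell by 0.32. Of the wider pathway, 5 of 13 tricarboxylic acid cycle genes rose and 0 fell, and 4 of 75 mitochondrial ribosome genes rose and 2 fell. On reads recovered from the RPKM, 8 members rose by edgeR. Of 20 G2/M genes 2 rose and 0 fell, with a median of 0.28 and 18 positive. Some genes of the stromal, macrophage and endothelial lists, picked after their values were seen, rose in the same step: Cxcl12 by 2.46 ± 0.39 (limma adjusted p = 0.000322), Vcam1 by 2.39 ± 0.45 (limma adjusted p = 0.00179), Stab2 by 1.70 ± 0.32 (limma adjusted p = 0.00179) and Cdh5 by 1.28 ± 0.35 (limma adjusted p = 0.0275). Others of those lists did not: Pdgfrb changed by -0.50 ± 0.32, Csf1r by -1.12 ± 0.35 and Pecam1 by -0.02 ± 0.16, and none of these was called. The 4 stromal markers summed to 3.26 to 7.014 CPM at P0 and 10.36 to 60.35 at P7. Sums overlapped for the 5 endothelial markers (122.3 to 148.8 and 130.1 to 178.6 CPM) and the 8 macrophage markers (147.7 to 219.5 and 132.8 to 175.4). The part of these in the rise of members was not tested.

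From P7 to P14, 2 members fell and 0 rose, where 1.08% of all genes fell and 0.628% rose. From P14 to Adult, 2 fell and 0 rose, where 3.09% fell and 2.24% rose. The fall at P14 was that of Cox4i2 and Cox5a, both of complex IV. Cox4i2 stood at 29.13, 29.21, 44.12 and 46.76 RPKM at P7 and at 19.64, 15.52, 2.15 and 14.12 at P14 (log2 -1.81 ± 0.39, limma adjusted p = 0.0161). The groups did not overlap, and P14 library 3 was far below the other 3. The call was lost without P7 library 4. From P14 to Adult, Sdhd fell by 0.29 ± 0.08 (limma adjusted p = 0.036) and Cox6b2 by 0.53 ± 0.15 (limma adjusted p = 0.0366), the latter with overlapping groups.

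Across the whole course from E16 to Adult, 20 of 89 members fell (22.5%) and 4 rose in HSC, where 12.2% of all genes fell and 12.3% rose. Within the members' length range, 15.6% of genes fell. The falls took in 6 of 17 ATP synthase genes, 6 of 36 of complex I, 4 of 15 of complex IV, 3 of 9 of complex III, 1 of 4 of complex II and 0 of 8 assembly factors. Cox4i2 had the largest change: 49.05, 33.26, 58.2 and 54.76 RPKM at E16 and 13.89, 17.17, 9.44 and 9.20 in adults. Adult libraries were all lower, by -1.94 ± 0.39 (limma adjusted p = 0.000617), and the call held in every alternative (-2.12 to -1.83). Sdhd, the small membrane anchor of complex II, stood at 414.4, 382.5, 432.7 and 416.3 RPKM at E16 and at 289.2, 316.8, 291.7 and 292.4 in adults (-0.46 ± 0.08, limma adjusted p = 0.00012). Its groups were well apart. Atp5b fell by 0.36 ± 0.07 (limma adjusted p = 0.000352), Uqcrb by 0.38 ± 0.09 (limma adjusted p = 0.00232), Cox6b2 by 0.61 ± 0.15 (limma adjusted p = 0.00356) and Ndufa9 by 0.31 ± 0.08 (limma adjusted p = 0.00401). Among the assembly factors the smallest adjusted p was that of Ndufaf6 (-0.81 ± 0.39, limma adjusted p = 0.137).

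Uqcrfs1, the Rieske iron-sulfur protein of complex III, stood at 152.1, 114.7, 115.5 and 124.2 RPKM at E16 and at 41.95, 24.79, 75.82 and 88.14 in adult HSC (-1.28 ± 0.44, limma adjusted p = 0.0369). P14 was spread as widely, at 16.21, 28.6, 86.96 and 104.7. The call was lost in 7 of 15 alternatives. The 4 members that rose were Uqcrq (0.43 ± 0.12, limma adjusted p = 0.00773), Ndufa13 (0.35), Ndufb10 (0.30) and Cox4i1 (0.28 ± 0.10, limma adjusted p = 0.0349). So within subunit 4 of complex IV, Cox4i2 fell and Cox4i1 rose on this scale. Ndufv1, which binds NADH in complex I, changed by -0.05 ± 0.10 (limma adjusted p = 0.771) and Sdha, the flavoprotein of complex II, by 0.00 ± 0.12 (limma adjusted p = 1). Over the same ages 23 of 75 mitochondrial ribosome genes fell and 1 rose, 2 of 13 tricarboxylic acid cycle genes fell, 19 of 75 cytosolic ribosome genes rose and 2 fell, and 18 of 20 G2/M phase genes fell. Of 8 subunits of the mitochondrial genome that were tested, 3 rose and 1 fell. T and NK cell markers (3 genes) summed to 9.591 to 20.8 CPM at E16 and 61.45 to 80.46 in adults, megakaryocyte markers (5 genes) to 108.9 to 130.4 and 268.1 to 371.3, and stromal markers to 0.523 to 2.925 and 13.23 to 17.96. In every group of the series Nkg7 made nearly all of the T and NK sum, and the means of Cd3e and Cd3d were at most 0.183 CPM. Pdgfrb made most of the stromal sum at these 2 ages (means of 1.687 and 14.35 CPM). Of 12 marker lists, 8 separated these 2 ages without overlap. Endothelial markers were lower in adults (142.3 to 154.3 CPM at E16, 65.62 to 107.5 in adults), and so were B cell markers. Higher in adults were macrophage markers (61.56 to 92.5 and 96.48 to 160.7) and hepatocyte markers (8.282 to 10.93 and 17.57 to 29.12). So were plasmacytoid dendritic genes (102.1 to 121.8 and 146.1 to 196.6), listed after values were seen. The part of the cell cycle and marker changes in the fall of members was not tested.

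**Figure D2:**
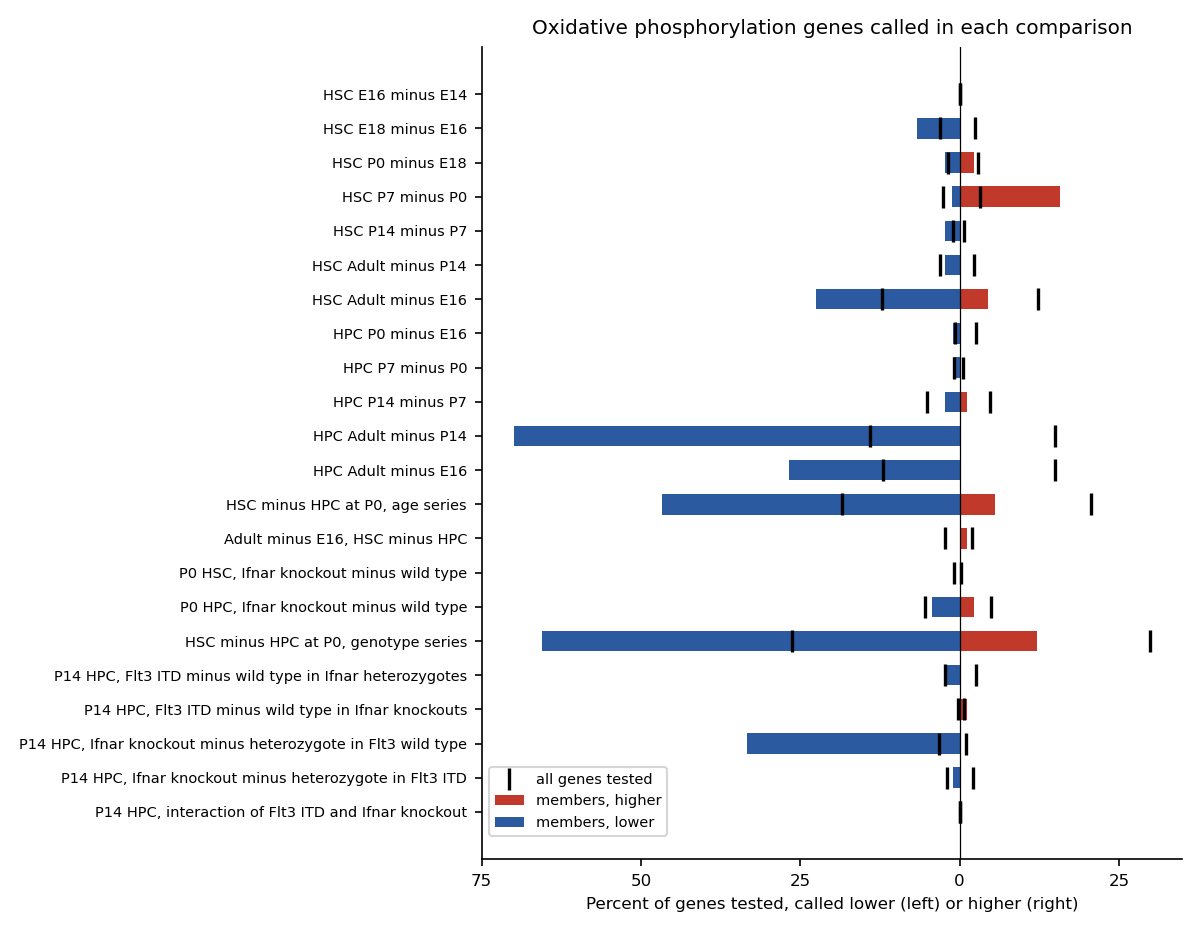
Bars show the percent of members tested that were called lower (left) or higher (right) in each of the 22 comparisons, and black ticks the same percent over all genes tested. The longest bars to the left are HPC Adult minus P14 (70%) and HSC minus HPC at P0 in the genotype series (65.6%).

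In HPC, 90 members passed the filter on low counts, and Cox7b2, Cox8b, Cox8c and Ndufa4l2 did not. The steps from E16 to P14 gave few calls. From E16 to P0, 1 member fell and 0 rose, where 0.691% of all genes fell and 2.58% rose. From P0 to P7, 1 fell and 0 rose, where 0.922% fell and 0.583% rose. This was Cox4i2, at 58.94, 48.28, 43.98 and 63.04 RPKM at P0 and 17.14, 25.32, 22.73 and 17.72 at P7 (-1.40 ± 0.33, edgeR adjusted p = 0.0284), without overlap, a call lost in 8 of 13 alternatives. From P7 to P14, 2 fell and 1 rose, where 5.06% fell and 4.79% rose: Ndufab1 (-0.82 ± 0.22, edgeR adjusted p = 0.0246) and Cox7c (-0.79 ± 0.24, edgeR adjusted p = 0.0394), both with copies elsewhere, and Ndufaf3 (0.52 ± 0.16, edgeR adjusted p = 0.0457). Without P14 libraries 1 and 2, 24 fell and 0 rose at that step.

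The largest movement of the members was between P14 and Adult HPC. Of 90 members, 63 fell (70%) and 0 rose, where 14% of all genes fell and 14.9% rose, and the median over the members was -0.63 against 0.04 over all genes. The fall took in 29 of 36 genes of complex I, 13 of 17 of ATP synthase, 11 of 16 of complex IV, 6 of 9 of complex III, 3 of 4 of complex II and 1 of 8 assembly factors. Cox4i2 stood at 27.0, 23.7, 16.62, 16.03 and 18.29 RPKM at P14 and at 2.83, 0.881, 3.81 and 3.69 in adults (-3.11 ± 0.36, edgeR adjusted p = 4.13e-06). Every adult library was far below every P14 library, and this held in every alternative (-3.31 to -2.74). Ndufv1 stood at 167.8, 165.1, 155.2, 137.3 and 136.1 RPKM at P14 and at 84.82, 116.5, 106.8 and 92.18 in adults (-0.85 ± 0.16, edgeR adjusted p = 0.000743), also without overlap and called in every alternative.

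Other members of the 63 showed a wide P14 group. Ndufa4 stood at 3499, 3096, 1509, 1399 and 2108 RPKM at P14 and at 1428, 1332, 1684 and 1578 in adults (-0.90 ± 0.25, edgeR adjusted p = 0.0119): P14 libraries 1 and 2 were high, and 2 of the other 3 lay among the adults. Ndufa9 stood at 569.5, 568.4, 379.7, 334.0 and 364.1 RPKM against 255.5, 328.2, 312.7 and 271.7 (-0.87 ± 0.20, edgeR adjusted p = 0.00295), with all P14 libraries higher. Cox4i1 stood at 1035, 1042, 702.3, 639.9 and 796.4 RPKM against 516.1, 691.3, 655.9 and 624.6 (-0.70 ± 0.18, edgeR adjusted p = 0.00668). Atp5o, the stalk protein that joins the head of ATP synthase to its stator, fell by 0.89 ± 0.22 (edgeR adjusted p = 0.00498), Atp5g3 by 0.87 ± 0.20 (edgeR adjusted p = 0.00314) and Cox7a1 by 1.36 ± 0.36 (edgeR adjusted p = 0.00792). Groups did not overlap for 20 of the 90 tested, all of them among the 63, and no such share was computed over all genes. Not called were Sdha (-0.27 ± 0.12, edgeR adjusted p = 0.0987), Uqcrfs1 (-0.49 ± 0.20, edgeR adjusted p = 0.066), Atp5b (-0.23 ± 0.19, edgeR adjusted p = 0.401) and Cox8a (-0.40 ± 0.16, edgeR adjusted p = 0.0561).

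Without P14 libraries 1 and 2, 9 members fell in place of 63, with a median of -0.28, and without Adult library 1 the count was 39. Adult library 1 had a length correlation of 0.445, the highest of the adult libraries, and their lowest share of reads on members (1.79%). Across genes the change had a Spearman correlation of 0.223 with exon length, and among 5820 genes of the members' length range 21.2% fell and 8.3% rose, with a median of -0.14. With the length trend removed in each library 64 members fell. Neutrophil markers (6 genes) summed to 244.1 to 2834 CPM in P14 HPC and 23.89 to 59.13 in adults, endothelial markers (5 genes) to 92.74 to 168.6 and 195.5 to 234.4, stromal markers to 16.28 to 42.52 and 47.73 to 91.97, and the 6 HPC markers to 5186 to 18360 and 3921 to 5377. Elane made most of the neutrophil sum (means of 1088 and 30.57 CPM), Pecam1 of the endothelial (126.8 and 207.3) and Pdgfrb of the stromal (29.77 and 65.49). Cdh5 of the endothelial list went the other way (-3.25 ± 1.20, edgeR adjusted p = 0.0464). The part of these in the fall was not tested. The wider pathway was called in the same comparison: 41 of 75 mitochondrial ribosome genes, 7 of 13 tricarboxylic acid cycle genes and 5 of 8 electron carrier and exchange genes fell and 0 of each rose, 14 of 20 G2/M genes fell, and 18 of 76 cytosolic ribosome genes fell and 4 rose. Of 8 subunits of the mitochondrial genome 0 were called by edgeR (1 at an unadjusted p under 0.05), with a median of -0.02.

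**Figure D3:**
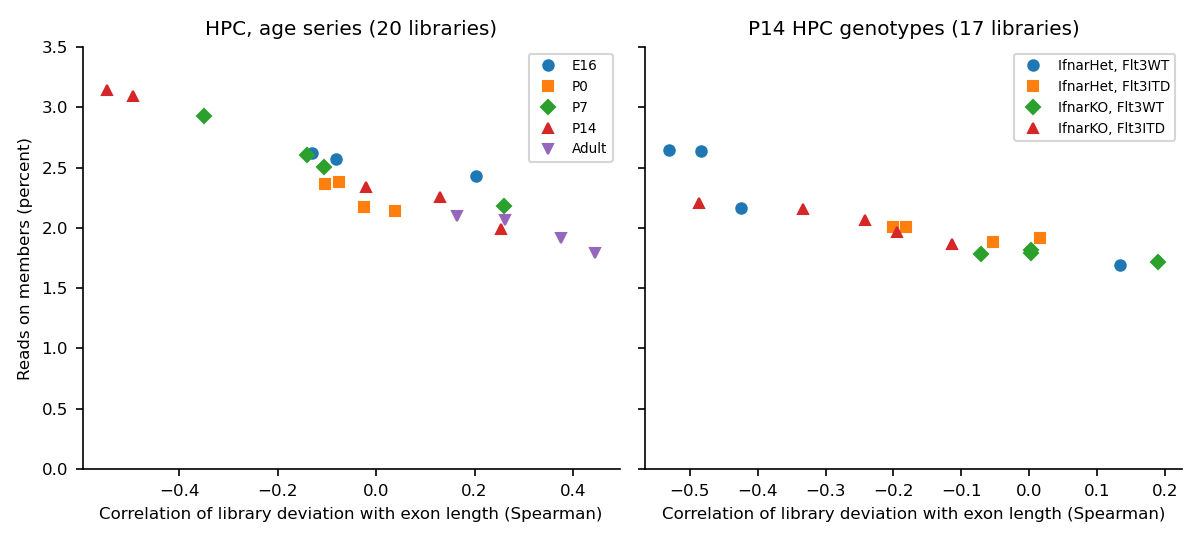
Percent of reads on the 94 members against the Spearman correlation of each library's deviation with exon length, in 20 HPC libraries of the age series and 17 P14 HPC libraries of the genotype series, 1 point per library. P14 HPC libraries 1 and 2, at -0.495 and -0.547, hold the highest shares, 3.10% and 3.14%.

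Between E16 and Adult HPC, which do not include the P14 libraries in the contrast, 24 of 90 members fell (26.7%) and 0 rose, where 12% of all genes fell and 15% rose. The median over members was -0.44 and that over all genes 0.05. This comparison shares its adult libraries with the one above. Length correlations of the libraries were 0.165 to 0.445 in adults and 0.203, -0.082 and -0.131 at E16. Its correlation with exon length was 0.09, and 15.7% of genes in the members' length range fell. Of the 24 called, 23 had groups that did not overlap, and so did 54 of the 90 tested (not computed over all genes). Complex I gave 11 of 36, ATP synthase 5 of 17, complex IV 4 of 16, complex II 3 of 4, complex III 1 of 9 and the assembly factors 0 of 8. Cox4i2 stood at 16.38, 50.32 and 37.69 RPKM at E16, against at most 3.81 in adults (-3.78 ± 0.39, edgeR adjusted p = 3.17e-07). Atp5a1 stood at 725.9, 692.3 and 653.0 RPKM at E16 and at 435.9, 535.2, 453.2 and 420.6 in adults (-0.72 ± 0.15, edgeR adjusted p = 0.00124). Sdhc stood at 127.7, 167.5 and 123.6 RPKM against 84.14, 98.62, 88.4 and 85.63 (-0.80 ± 0.19, edgeR adjusted p = 0.00316), and Ndufa9 fell by 0.85 ± 0.22 (edgeR adjusted p = 0.00613). Every E16 library exceeded every adult library for these 4 genes. Ndufv1 fell by 0.69 ± 0.18 (edgeR adjusted p = 0.00714) and Sdhd by 0.73 ± 0.25 (edgeR adjusted p = 0.0326). In complex III the smallest adjusted p was that of the core subunit Uqcrc1 (edgeR adjusted p = 0.0375), and among the assembly factors that of Ndufaf5 (-0.61 ± 0.25, edgeR adjusted p = 0.0688). Sdha (-0.24 ± 0.14, edgeR adjusted p = 0.198), Atp5b (-0.47 ± 0.22, edgeR adjusted p = 0.116) and Cox4i1 (-0.27 ± 0.20, edgeR adjusted p = 0.338) were not called. With the length trend removed in each library the count was 47, and it was 12 to 24 with 1 library left out. Over the same ages 26 of 75 mitochondrial ribosome genes, 4 of 13 tricarboxylic acid cycle genes and 17 of 20 G2/M genes fell. T and NK cell markers summed to 78.08 to 89.73 CPM at E16 and 429.8 to 533.4 in adults, and endothelial markers to 93.76 to 128.1 and 195.5 to 234.4. Nearly all of the first sum was Nkg7 (means of 83.07 and 482.2 CPM) and of the second Pecam1 (103.7 and 207.3). Of the other endothelial markers, Stab2 had a higher mean in adults (0.525 and 2.32 CPM), and Cdh5 (0.388 and 0.0286) and Kdr (0.771 and 0.109) had lower ones. Of 12 marker lists, 5 separated these ages without overlap. The remaining ones were also higher in adults: hepatocyte markers (10.15 to 15.39 and 17.39 to 20.27 CPM), stromal markers (20.05 to 44.89 and 47.73 to 91.97) and plasmacytoid dendritic genes (177 to 219 and 234.4 to 255). The part of these in the result was not tested.

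**Figure D4:**
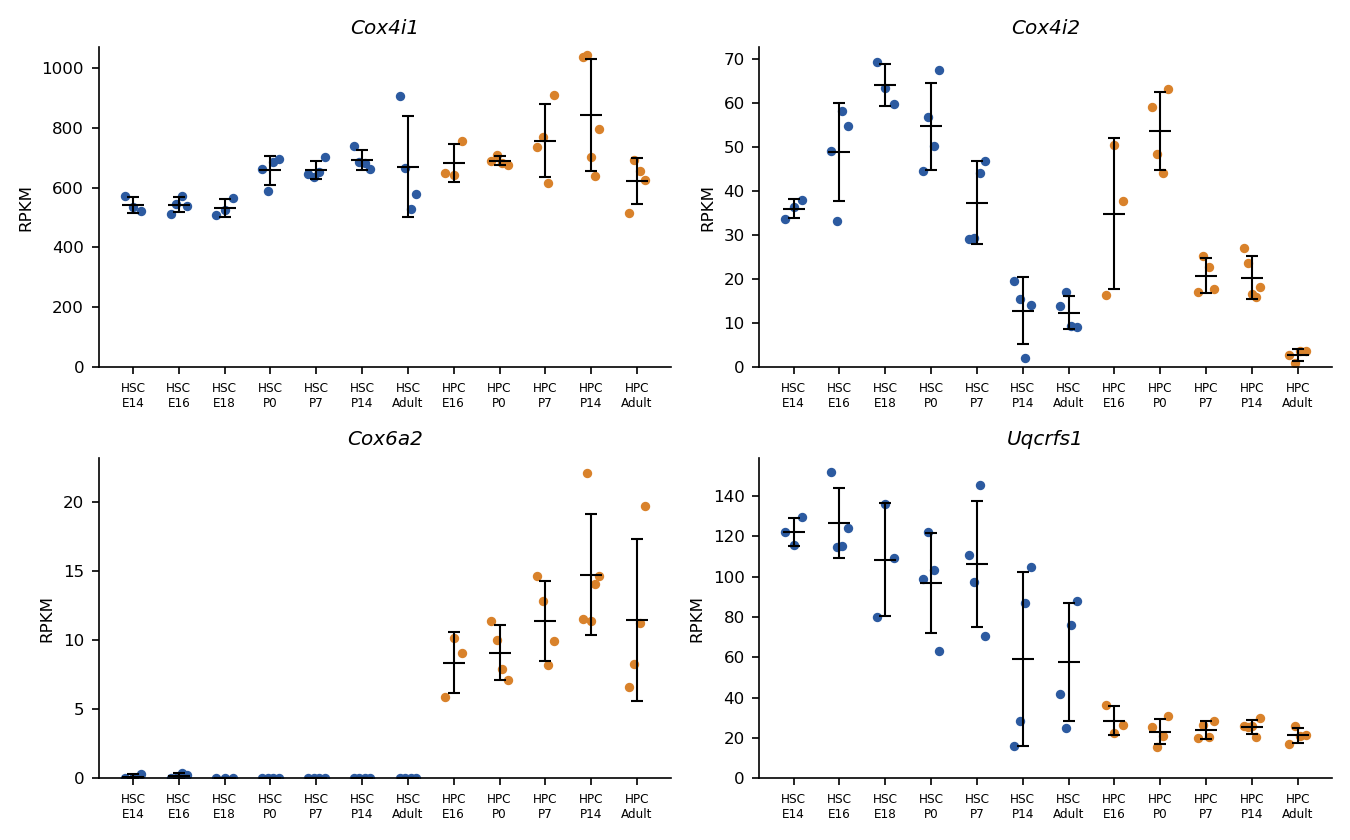
RPKM of Cox4i1, Cox4i2, Cox6a2 and Uqcrfs1 in the 12 age groups of HSC and HPC (points, 1 per library, with mean and SD). Cox4i2 is lowest in adult HPC (0.881 to 3.81 RPKM), Cox6a2 is at 0 in nearly all HSC libraries, and Uqcrfs1 is spread in P14 and adult HSC.

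Whether the E16 to Adult change differed between the cell types was tested directly, by limma on RPKM of both. Of 90 members 1 was called, where 1.9% of all genes were called higher and 2.25% lower. Ndufs7, a core iron-sulfur subunit of complex I, stood in HSC at 164.0, 158.7, 175.5 and 168.2 RPKM at E16 and at 230.8, 190.3, 155.0 and 175.0 in adults, and in HPC at 240.4, 225.0 and 215.1 at E16 and at 152.1, 186.6, 179.0 and 153.4 in adults. The HSC groups overlapped and the HPC groups did not. The difference of changes, HSC minus HPC, was 0.70 ± 0.20 (limma adjusted p = 0.0344), and it lost its call in 9 of 20 alternatives (0.63 to 0.81). Over the members the median difference was 0.34, and 77 of 90 were positive, while that over all genes was -0.04. The HSC and HPC counts of falls given above come from fits of unlike units and group sizes and are not ranked. Cox4i2 (1.56 ± 0.61, limma adjusted p = 0.162) and Ndufv1 (0.60 ± 0.21, limma adjusted p = 0.0981) were not called.

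At P0 the cell types were compared in both series. In the age series, HSC were lower than HPC in 42 of 90 members (46.7%) and higher in 5, where 18.4% of all genes were lower and 20.6% higher. The lower members took in all 4 genes of complex II, 11 of 17 of ATP synthase, 13 of 36 of complex I, 7 of 16 of complex IV, 4 of 9 of complex III and 3 of 8 assembly factors. In the genotype series, wild type HSC were lower in 59 of 90 members (65.6%) and higher in 11, where 26.3% of all genes were lower and 29.9% higher. Of those 11, the 6 with the largest changes are the genes with copies named above. HSC and HPC of the genotype series did not give like values for genes with copies, as described. Cytosolic ribosome genes took 10.6% to 11.5% of reads in its wild type HSC and 3.59% to 4.93% in its wild type HPC, and the mitochondrial genes mt-Co2, mt-Atp6 and mt-Co3 had means of 67.35 to 173.2 CPM in those HSC and 0.0379 to 0.0914 in those HPC. Of genes in the members' length range, 32.6% were lower in HSC of the genotype series and 19.5% in the age series. How much of the genotype series counts comes from the way reads were counted cannot be told apart from the cell type, and in both series the same holds for any difference between sequencing runs.

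Cox6a2 separated the cell types most. It stood at 11.39, 10.04, 7.88 and 7.11 RPKM in P0 HPC and at 0 in all 4 P0 HSC libraries, which makes it at least 154-fold lower in HSC, taking 3 reads over the group as the floor. In the genotype series it had 0 reads in all 9 P0 HSC libraries and a mean of 7.79 CPM in wild type HPC, at least 560-fold above the floor of wild type HSC. Over the HSC age series, 3 of 26 libraries held any read, the highest at 0.398 RPKM. On the log2 scale, Ndufa4 was lower in HSC by 1.22 ± 0.20 in the age series (limma adjusted p = 5.73e-06) and by 1.47 ± 0.20 in the genotype series (edgeR adjusted p = 3.86e-05). Sdhb was lower by 0.84 ± 0.14 (limma adjusted p = 5.02e-06) and by 0.95 ± 0.12 (edgeR adjusted p = 3.08e-05). Uqcr10 was lower by 1.09 ± 0.19 (limma adjusted p = 1.66e-05) and by 0.81 ± 0.17 (edgeR adjusted p = 0.00141). These 4 genes were thus called lower in both sets of libraries. For Cox6a2 the calls are descriptive, as only its HPC libraries let it pass the filters. Over the same P0 libraries of the age series, 10 of 13 tricarboxylic acid cycle genes, 33 of 75 mitochondrial ribosome genes and 18 of 20 G2/M genes were lower in HSC, with 0, 5 and 0 higher.

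Some members that were higher in HSC in the age series were not so in the genotype series. Uqcrfs1 stood at 98.78, 122.3, 103.2 and 63.07 RPKM in HSC and at 25.49, 15.77, 20.8 and 30.7 in HPC (1.95 ± 0.38, limma adjusted p = 0.000106), and in the genotype series HSC minus HPC was 0.42 ± 0.19 (edgeR adjusted p = 0.0824). Cyc1 was higher by 1.32 ± 0.35 (limma adjusted p = 0.00329) and changed by -0.22 ± 0.20 (edgeR adjusted p = 0.358). Cox5a was higher by 2.39 ± 0.60 (limma adjusted p = 0.00176) and then lower by 1.03 ± 0.23 (edgeR adjusted p = 0.002). The P0 HPC libraries of the 2 tables stood apart for these genes: the mean CPM in the genotype series was 5.749 times that in the age series for Cox5a, 2.774 times for Cyc1 and 2.368 times for Uqcrfs1, where the median ratio over 90 members was 0.987. In P0 HSC the ratios were 0.534, 0.892 and 0.744. The P0 HPC libraries of the age series had length correlations of -0.103 to 0.038.

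In P0 HSC, Ifnar -/- against wild type gave 0 called members of 89 by edgeR (1 at an unadjusted p under 0.05, 0 by DESeq2), where 0.21% of all genes were called higher and 0.931% lower. The share of reads on members was 1.65% ± 0.112 (SD, n = 5) in wild type and 1.70% ± 0.141 (n = 4) in Ifnar -/- HSC. The median over members was 0.03.

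In P0 HPC labelled Ifnar -/-, 4 of 91 members were lower and 2 higher, where 5.4% of all genes were lower and 4.97% higher. The 3 largest changes were far larger than any other among the members. Cox6a2 stood at 11.03, 8.16, 7.74 and 4.21 CPM in wild type (62 to 145 reads) and at 0.599, 0.234, 0.152 and 0.462 in Ifnar -/- (2 to 7 reads), with a log2 fold change of -4.48 ± 0.47 (edgeR adjusted p = 6.07e-05). The groups were far apart. Ndufa4l2, the paralog of Ndufa4 known to be induced in low oxygen, stood at 0, 0.0777, 0.811 and 0.408 CPM (0 to 11 reads) in wild type and at 13.52, 6.25, 7.06 and 1.61 (21 to 158 reads) in Ifnar -/- (4.34 ± 0.78, edgeR adjusted p = 0.00396). All Ifnar -/- libraries were higher. Uqcrfs1 stood at 52.93, 62.2, 66.44 and 117.8 CPM in wild type and at 196.7, 200.8, 214.0 and 165.0 in Ifnar -/- (1.32 ± 0.20, edgeR adjusted p = 0.00137), again without overlap. These 3 calls held in every alternative (Cox6a2 -4.81 to -4.18, Ndufa4l2 3.82 to 5.27, Uqcrfs1 1.19 to 1.61). Ndufa4l2 passed the filter on low counts in this fit alone, through its Ifnar -/- libraries. Cox6a2 passed it here through its wild type libraries. The p-values of these 2 genes are therefore descriptive, as the high group is what let them be tested.

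Sdhb was lower in Ifnar -/- HPC at P0, at 387.2, 385.1, 364.3 and 362.0 CPM against 541.8, 496.8, 539.2 and 445.3 (-0.50 ± 0.10, edgeR adjusted p = 0.00751). Ndufa9 was lower by 0.36 ± 0.10 (edgeR adjusted p = 0.0329), and Ndufa4 by 0.53 ± 0.16 with an edgeR adjusted p that rounds to 0.05 and overlapping groups. Over all members the median was -0.28 (82 of 91 negative, 44 at an unadjusted p under 0.05), where the correlation with exon length was 0.272 and genes of the members' length range had a median of -0.09. Length correlations of the libraries were 0.193 to 0.305 in Ifnar -/- and -0.042, -0.002, -0.029 and 0.238 in wild type, the last in library 4. Without wild type library 4, whose trend was like that of the Ifnar -/- libraries, 49 members were lower. With the length trend removed in each library, fewer were lower than the 4 called above, as given at the end. Of 12 marker lists, 7 separated the groups without overlap. Megakaryocyte markers summed to 222.5 to 531.0 CPM in Ifnar -/- and 121.3 to 183.9 in wild type, and erythroid markers to 74.76 to 179.3 and 50.95 to 71.47. Lower in Ifnar -/- were HPC markers (2517 to 3224 against 4056 to 4665 CPM), macrophage markers (8 genes, 34.92 to 86.69 against 125.0 to 151.7), B cell markers (3 genes, 1.69 to 3.94 against 13.59 to 27.13) and T and NK cell markers (32.36 to 55.92 against 64.13 to 103.0). Nkg7 made nearly all of the T and NK sum (means of 43.09 and 87.66 CPM). Mpo made most of the gap in HPC markers (means of 319.4 and 1335 CPM). Kit of that list was higher in Ifnar -/- (835.2 and 547 CPM, 0.55 ± 0.16, edgeR adjusted p = 0.0444), and Flt3 was not called (-0.25 ± 0.21). In the erythroid list Gata1 (76.46 and 23.24 CPM) and Epor (25.18 and 5.957) were higher, while Tfrc had a lower mean (23.39 and 31.53) and was not called. Siglech, a gene of plasmacytoid dendritic cells looked at after the values were seen, had a mean of 0.522 against 5.82 CPM. The 8 genes of the plasmacytoid list summed to 147.6 to 185.5 CPM in Ifnar -/- and 389.9 to 448.5 in wild type. Most of that gap was Bst2 (means of 54.01 and 203.0 CPM) and Ccr9 (21.68 and 109.6). Runx2 (90.14 and 88.97 CPM) and Pacsin1 (5.56 and 5.82) of the same list stood near the same level in both groups. Their part in the changes was not tested.

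At P14, Ifnar -/- was compared with Ifnar +/- in HPC with Flt3 +/+ and with Flt3 ITD/+, and Cox6a2 was lower in both. In Flt3 +/+ HPC it stood at 9.89, 6.27, 9.58 and 9.001 CPM in Ifnar +/- and at 1.07, 0.576, 1.58 and 0.898 in Ifnar -/- (-3.29 ± 0.32, edgeR adjusted p = 2.62e-05). In Flt3 ITD/+ HPC it stood at 6.14, 5.999, 4.35 and 6.65 CPM in Ifnar +/- and at 1.94, 1.55, 1.04, 2.16 and 1.28 in Ifnar -/- (-1.90 ± 0.28, edgeR adjusted p = 0.000552). Neither pair of groups overlapped, and both calls held in every alternative. The difference of the 2 changes was 1.39 ± 0.41 (edgeR adjusted p = 0.0872) and was not called. Plasmacytoid dendritic genes summed to 151.3 to 183.8 CPM in Ifnar +/- and 131.4 to 168.5 in Ifnar -/- with Flt3 +/+, and to 172.5 to 253.0 and 100.8 to 127.7 with Flt3 ITD/+. Bst2 made most of the gap with Flt3 ITD/+ (means of 133.2 and 44.5 CPM), while Runx2 stood at 45.99 and 47.82. With Flt3 ITD/+, HPC markers (2228 to 3851 CPM in Ifnar -/-, 4375 to 6209 in Ifnar +/-) and erythroid markers (24.14 to 44.47 and 47.87 to 98.14) also separated the groups. Mpo made most of the gap in HPC markers (means of 449.9 and 2217 CPM), while Cd48 stood at 502.3 and 486.9. Tfrc made most of the erythroid gap (22.57 and 46.29 CPM), while Epor had a higher mean in Ifnar -/- (3.765 and 1.824). Their part in the Cox6a2 difference was not tested.

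In Flt3 +/+ HPC, 30 of 90 members were lower in Ifnar -/- and 0 higher, where 3.31% of all genes were lower and 1.08% higher. The median over members was -0.68, and 9 of 17 ATP synthase, 13 of 36 complex I, 3 of 9 complex III, 3 of 4 complex II and 2 of 16 complex IV genes were lower. Cox6a2 alone of the 30 had groups that did not overlap. Uqcrq stood at 351.9, 110.7, 273.5 and 178.0 CPM in Ifnar +/- and at 121.2, 118.4, 129.3 and 108.0 in Ifnar -/- (-1.16 ± 0.26, edgeR adjusted p = 0.0356): Ifnar +/- library 2 lay among the Ifnar -/- libraries, and the other 3 above them. Those 3 are the libraries with steep length trends. Without them and the steep library of the Flt3 ITD/+ group, which leaves 1 library of Ifnar +/- with Flt3 +/+ that is assumed to vary like the other groups, 1 member was lower, the median was 0.067, and Uqcrq, Ndufs6, Ndufa11 and Atp5k turned to 0.065, 0.12, 0.11 and 0.15. Without library 2 of Ifnar +/- instead, 75 were lower. With the length trend removed in each library, 3 were lower. The change correlated with exon length at 0.365, and 6.34% of genes in the members' length range were lower. Neutrophil markers summed to 2022 CPM in Ifnar +/- library 1 and to at most 10.77 in the other 3. Elane gave 501.1 CPM of their group mean of 511.1. T and NK cell markers separated the groups, at 91.06 to 139.4 CPM in Ifnar -/- and 153.3 to 550.9 in Ifnar +/-, and so did B cell markers, at 1.03 to 2.30 and 3.85 to 13.41. Nearly all of the T and NK sum was Nkg7 (means of 113.2 and 298.1 CPM). The part of these in the result was not tested. In the same comparison 35 of 76 mitochondrial ribosome genes were lower.

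In Flt3 ITD/+ HPC, Cox6a2 was the only member called between Ifnar -/- and Ifnar +/-, where 1.92% of all genes were lower and 2.11% higher, and the median over the members was 0.06.

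The Flt3 ITD was compared with Flt3 +/+ within each Ifnar genotype. In Ifnar -/- HPC, Cox4i2 was higher with the ITD and was the only member called of 90, where 0.647% of all genes were higher and 0.315% lower. It stood at 4.99, 6.62, 7.29 and 13.03 CPM with Flt3 +/+ and at 49.71, 27.88, 47.86, 29.8 and 46.12 with Flt3 ITD/+ (2.37 ± 0.41, edgeR adjusted p = 0.00456). Every ITD library was above every Flt3 +/+ library, and the call held in every alternative (2.14 to 2.76). Markers separated the same groups: HSC markers stood at 1382 to 2057 CPM with the ITD and 2247 to 2749 without, T and NK cell markers at 147.3 to 253.3 and 91.06 to 139.4, B cell markers at 3.01 to 7.19 and 1.03 to 2.30, and plasmacytoid dendritic genes at 100.8 to 127.7 and 131.4 to 168.5. Nkg7 made nearly all of the T and NK sum (means of 197.1 and 113.2 CPM). In the plasmacytoid list Ccr9 was lower with the ITD (5.63 and 26.39 CPM) and Ly6d higher (12.18 and 1.09). Macrophage markers overlapped, at 82.46 to 362.1 and 81.69 to 107.6 CPM. Their part in the Cox4i2 difference was not tested. In Ifnar +/- HPC, Cox4i2 stood at 13.81, 10.23, 18.68 and 6.53 CPM with Flt3 +/+ and at 23.62, 23.73, 31.64 and 64.49 with the ITD, also without overlap (1.44 ± 0.41, edgeR adjusted p = 0.0513), and was not called. The 2 changes differed by 0.93 ± 0.56 (edgeR adjusted p = 0.272), which was not called either.

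In Ifnar +/- HPC, 2 of 90 members were lower with the ITD and 0 higher, where 2.23% of all genes were lower and 2.62% higher. Ndufa4 stood at 738.8, 444.0, 1108 and 726.0 CPM with Flt3 +/+ and at 372.4, 354.1, 382.1 and 448.8 with the ITD (-1.08 ± 0.24, edgeR adjusted p = 0.0185), with 1 library of each group overlapping. Cox7a2l stood at 383.4, 395.3, 672.7 and 550.5 CPM and at 301.4, 295.9, 327.7 and 337.8 (-0.78 ± 0.21, edgeR adjusted p = 0.0439), without overlap. The Flt3 +/+ library without a steep length trend, library 2, was lowest for Ndufa4 and lay among the ITD libraries, while for Cox7a2l it lay above all ITD libraries. Without the steep libraries, which leaves 1 library with Flt3 +/+, 0 members were called lower, and without library 2 of Ifnar +/- Flt3 +/+ 65 were. The interaction of Ifnar and Flt3 genotype was called for 0 members by edgeR (67 at an unadjusted p under 0.05, and 52 called higher and 1 lower by DESeq2), where 0% of all genes were called higher and 0.0115% lower. Its median over members was 0.82, its correlation with exon length was -0.359, and without the steep libraries that median was -0.08.

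**Figure D5:**
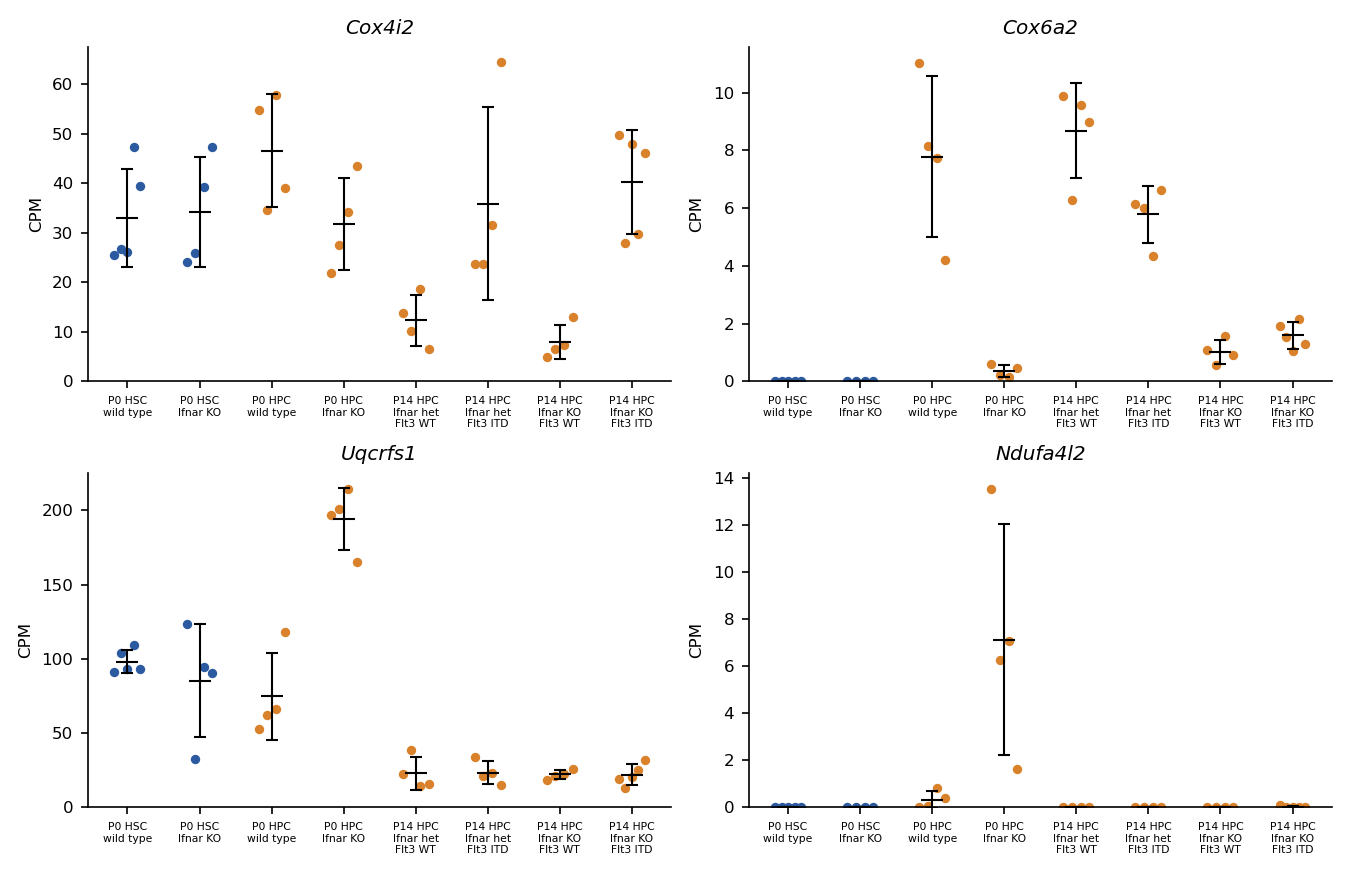
CPM of Cox4i2, Cox6a2, Uqcrfs1 and Ndufa4l2 in the 8 genotype groups (points, 1 per library, with mean and SD). Cox6a2 is lower in each Ifnar -/- HPC group, Ndufa4l2 and Uqcrfs1 are high in Ifnar -/- HPC at P0, and the Cox4i2 points of both Flt3 ITD groups lie above those of the Flt3 +/+ group with the same Ifnar label.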

How the data were processed

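RNA-seq libraries of mouse HSC and HPC were used as deposited in 2 gene tables (41388 and 40481 genes). Reads were aligned with STAR (given as 3.0.4) and counted with featureCounts 1.4.5 of Subread, per the submitters' processing notes, and RNA was prepared with a Qiagen micro kit and a Clontech kit, per the labels' protocols. The authors' genome build and annotation are not given in the sources used here. Member levels therefore carry no coordinates. Per the values in the files, the authors deposited raw read counts for HPC of the age series and all genotype libraries, and RPKM for HSC of the age series. Whole reads were recovered from the RPKM (25622 detected genes, tolerance 0.001 reads) and gave the depth of those libraries. The first table held 1 column of values that was not used and 2 rows that were not mouse genes.

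For counts, edgeR 4.0.16 (R 4.3.3) was used: TMM scaling, filterByExpr and the quasi-likelihood test. For RPKM, and for HSC against HPC in the age series, limma 3.58.1 with trend and robust options was fitted to log2(RPKM + 0.5) after TMM scaling. It took genes over 1 RPKM in at least the library number of the smallest group. That scale understates changes of low genes. Tests were two-sided over all genes of 22 comparisons, adjusted by Benjamini-Hochberg and called under 0.05. Each fit used no covariate. P-values measure the spread between libraries, which may be technical. Fold changes are log2 ± SE. CPM are counts per M (mega) reads on genes. HPC levels in RPKM used the same exon lengths, of GENCODE M21 for 51 members and from the recovered reads for 42.

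Members, gene lists, motifs and the naming rule were chosen with earlier results of these data known. Named were a core subunit of each complex and paralog pairs in every group, up to 6 called members of largest change per direction and comparison, and per complex the member of smallest adjusted p from E16 to Adult. Alternatives were DESeq2 1.42.0, other filters, scaling and pseudocount, edgeR on recovered reads, removal of trends with exon length and GC, a replicate block and left-out libraries. On simulated counts with known changes, 85.2% of genes changed by 1 log2 unit were recovered for HPC Adult minus P14 (14249 genes), 69.6% for P0 HPC Ifnar -/- minus wild type (13018) and 74.8% for P14 HPC Ifnar -/- minus Ifnar +/- in Flt3 +/+ (17038). For HSC P7 minus P0, 74.3% were recovered (12432 genes). Of the genes called, 4.17% to 7.03% were false. The simulation drew each gene independently with the same dispersion for all, and changed only genes well covered by reads. It held no length trend and no shift shared by genes of a library. The rates therefore do not describe the real libraries that carry such trends. Within groups, no 2 libraries agreed within sampling noise (123 pairs). The values of 1 member are not reported here.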

Additional observations from a re-analysis of the deposited data

Results flagged for a closer look

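In 7 of 130 groups of values examined, each the level of 1 of 7 members or the share of reads on members in a group of 4 or 5 libraries, 1 library lay far from the others. Chance flags about 1 in 20 such groups. In P0 HSC labelled Ifnar -/-, Atp5b stood at 651.4 CPM in library 1 and at 717.9 to 725.3 in the others. In P14 HPC of the age series, Atp5b stood at 88.14 RPKM in library 1, 1 of the pair with the steep length trend, and at 193.8 to 226.2 in the others. Ndufv1 stood at 269.0 CPM in library 1 of P14 HPC labelled Ifnar -/- with Flt3 +/+ (others 328.3 to 339.5) and at 97.04 RPKM in library 3 of P0 HPC of the age series (others 140.4 to 145.4). Sdha stood at 243.8 RPKM in library 3 of P7 HPC (others 208.4 to 212.9) and at 166.1 in library 1 of adult HSC (others 247.2 to 250.5). In P7 HSC, the share of reads on members was 2.08% in library 2 and 2.14% to 2.15% in the others.

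The change from E16 to Adult differed between HSC and HPC for Ndufs7, with a log2 difference of 0.70 ± 0.20 (interaction of cell type and age, limma adjusted p = 0.0344). Levels fell in HPC, and HSC groups overlapped.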

How the results depend on the processing

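Of counts of called members, 478 values under alternatives stayed within 1.5 times the reported count and 170 did not, most of them counts of a few genes. The cause was not tested unless a setting tests fewer samples. With the length trend removed, HPC Adult minus E16 gave 47 lower, HSC P7 minus P0 25 higher, HSC P0 minus E18 13 lower and 1 higher, HSC Adult minus P14 1 lower, the HSC minus HPC difference of Adult minus E16 5 higher, HPC P14 minus P7 3 higher, HPC P0 minus E16 and P7 minus P0 1 higher each, P0 HPC Ifnar -/- 2 lower, P14 Ifnar -/- in Flt3 +/+ 3 lower, and the ITD in Ifnar +/- 1 lower and 1 higher. With length and GC removed together (chosen after seeing the data), these were 48, 24, 13 and 1, and for the cell type difference 3, HPC P14 minus P7 4 higher, HPC P0 minus E16 1 higher, HSC P14 minus P7 1 lower, P0 HPC Ifnar -/- 2, Ifnar -/- in Flt3 +/+ 7, and the ITD in Ifnar +/- 1 and 1.

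DESeq2 gave 67 lower for Ifnar -/- in Flt3 +/+, 52 higher and 1 lower for the interaction, 14 lower and 3 higher for the ITD in Ifnar +/-, 2 lower for Ifnar -/- in Flt3 ITD/+, 12 lower for P0 HPC Ifnar -/-, and 1, 1 and 2 higher for HPC P0 minus E16, P7 minus P0 and P14 minus P7. edgeR on recovered reads gave 8 higher for HSC P7 minus P0 and 1 lower each for P0 minus E18, P14 minus P7 and Adult minus P14. Without a filter on low values, HSC P0 minus E18 gave 1 higher and 1 lower, P14 minus P7 1 lower, Adult minus P14 0 lower and the cell type difference 0 higher. Without a filter on low counts, HPC P14 minus P7 gave 0 higher and 1 lower, P0 minus E16 0 lower and the ITD in Ifnar +/- 1 higher. Without P14 HPC libraries 1 and 2 (chosen after seeing the data), Adult minus P14 gave 9 lower and P14 minus P7 24 lower and 0 higher. Without the 4 steep P14 libraries (likewise), Ifnar -/- in Flt3 +/+ gave 1 lower and the ITD in Ifnar +/- 0 lower, and Atp5k (0.15), Ndufa11 (0.11), Ndufs6 (0.12) and Uqcrq (0.065) changed sign.

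The labels share replicate numbers across groups, but they state no pairing of libraries. The mean correlation of deviations of same-numbered libraries was -0.01 in HSC, -0.04 in HPC, and 0.07 and 0.03 in P0 HSC and HPC. At P14 it was 0.12, where 15 of 24 pairs exceeded 0.1, against -0.03 for libraries of other numbers. Whether same-numbered P14 libraries share a source cannot be told from this. With the replicate number as a replicate block, HPC P14 minus P7 gave 2 higher and 0 lower, P7 minus P0 and P0 minus E16 0 lower, HSC P0 minus E18 and Adult minus P14 1 lower, P0 HPC Ifnar -/- 2 lower and the ITD in Ifnar +/- 2 higher. Other counts under the block stayed within 1.5 times.

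With 1 library left out at a time, calls lower ranged over 39 to 72 for HPC Adult minus P14, 12 to 24 for Adult minus E16, 0 to 2 for P14 minus P7, 0 to 1 for P7 minus P0 and for P0 minus E16, and in HSC over 3 to 7 for E18 minus E16, 0 to 5 for P0 minus E18, 0 to 2 for P7 minus P0, P14 minus P7 and Adult minus P14, 2 to 49 for P0 HPC Ifnar -/-, 1 to 75 for Ifnar -/- in Flt3 +/+, 1 to 2 for it in Flt3 ITD/+, 0 to 65 for the ITD in Ifnar +/- and 0 to 3 for the interaction. Calls higher ranged over 6 to 17 for HSC P7 minus P0, 2 to 4 for Adult minus E16, 0 to 2 for P0 minus E18, 0 to 1 for Adult minus P14, in HPC over 0 to 3 for P14 minus P7 and 0 to 1 for P0 minus E16, Adult minus P14 and Adult minus E16, 3 to 5 for HSC minus HPC at P0, 0 to 2 for the cell type difference, 2 to 4 for P0 HPC Ifnar -/-, 0 to 3 for Ifnar -/- in Flt3 +/+, 0 to 4 for the ITD in Ifnar +/- and 0 to 70 for the interaction. Leaving out 1 library leaves at least 2 in each group. At the depth of P0 HPC, Ndufa4l2 in wild type rests on 0 to 11 reads a library.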
